A study of Rattus norvegicus with 2 samples.

Results

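The 10 genes described here are imprinted genes: H19, Igf2, Peg3, Dlk1, Meg3, Cdkn1c, Mest, Plagl1, Grb10 and Zim1. They were taken by name, as the rows of the deposited tables whose gene symbol, once the species tag was removed, was in that list. Of the 10 genes, 9 had a rat row and 8 had a mouse row, which together made 17 of the 49280 rows. Meg3 was not analysed here, and H19 was analysed on its rat row only, so no H19 level is given for mouse cells.

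Imprinted genes are transcribed mainly from the copy inherited from 1 parent, and the choice is carried by DNA methylation laid down in the germ line. Igf2, Dlk1, Peg3, Mest and Plagl1 are expressed from the paternal copy, and H19, Meg3, Cdkn1c and Zim1 from the maternal copy, with Grb10 maternal in most tissues. Many act on growth: Igf2 is a fetal growth factor, Cdkn1c an inhibitor of cyclin-dependent kinases, and Grb10 an adaptor that dampens insulin and IGF1 receptor signaling. Imprints are known to be at risk during reprogramming and culture of pluripotent cells. The 3' counts used below do not tell the parental copies apart, so they give total levels and not imprinting status.

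The cells came from skeletal muscle gathered across the body of 1 SD rat and 1 rat-mouse chimera, dissociated with collagenase and sorted for live cells before 10x Genomics 3' single-cell sequencing. The chimera was 1 of several animals made by injecting mouse iPSCs into SD rat morulae. The iPSCs carried a Dmd mdx allele corrected with CRISPR/Cas9 by skipping of the exon that holds the mutation, and a Pax7-nGFP reporter that labels satellite cells; they descended from male mouse embryonic fibroblasts and from an edited clone. The SD rat was the rat control. Each group was therefore 1 animal and 1 library, the mouse cells stood for 1 edited clone, and species, genotype, reprogramming history and residence in a chimera cannot be told apart in any comparison of mouse with rat cells. No age was given for either animal in the sources used here.

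The chimera library held 118872850 UMIs (unique molecular identifiers, 1 per captured transcript) over 13299 barcodes and the SD rat library 70957559 over 10117. After filters and removal of doublets, 11730 and 8816 cells were kept, with medians of 7848 and 6276 UMIs per cell. In the chimera, 1847 cells had at least 80% of their UMIs on mouse rows and are called mouse cells, 8230 had at most 20% and are called rat cells, and 1653 lay between and were left out. The 2 libraries shared 43 barcode sequences. Cell types were rebuilt from marker lists and are called X-like, where EC is endothelial cell, MP myogenic progenitor and FAP fibro-adipogenic progenitor. Mouse, chimera rat and SD rat groups held 1086, 688 and 1028 EC-like, 39, 341 and 284 MP-like, 117, 2634 and 3173 FAP-like, 41, 580 and 523 tenocyte-like, and 29, 837 and 1500 myocyte-like cells. In each group the EC, FAP and myocyte lists led their own type, with all 10 EC, 10 FAP and 9 myocyte markers at least 2-fold over the median of the other types. The same lists set the types, so their lead in their own type was largely fixed by the rule and is no independent check. The MP list led MP-like cells in both rat groups, but in the mouse it summed to 2929 CPM in MP-like and 3166 CPM in the 29 myocyte-like cells. Of its 10 markers, 6 were at 0 in those myocyte-like cells and 3 were at least 2-fold over the median of the other types. In mouse MP-like cells all 10 were. Schwann-like, myeloid-like, T/NK-like and B-like cells were also compared, which made 9 types. The SD rat reads had been mapped to rat rows only, and those of the chimera to rat and mouse rows together.

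Levels are CPM, the summed UMIs of a gene scaled to a library of 1000000 UMIs on the group's own species' rows, over the 16109 symbols that had 1 row in each species. Each level is followed in parentheses by its exact 95% Poisson interval. A log2 ratio compares CPM + 1 between groups and is followed by an interval from the exact binomial interval of the summed counts. A gene was called higher or lower at a ratio of at least 2-fold. With 1 library per group these intervals cover counting error only, no p-value could be given, and the spread between animals is unknown.

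Rat start-site sequences are shown first for the 3 members at least 2-fold lower in mouse than in chimera rat EC-like cells. CpG dinucleotides are sites of DNA methylation, but no methylation was measured, and the sequences give no imprinting status. They are from RefSeq, build GRCr8, 250 bases before to 50 after the annotated start, in lower case with each CpG in capitals; the deposited counts were made on mRatBN7.2. Of the 10 genes, 8 had an entry, with a pair of starts for Igf2, both on the minus strand at chr1:207253931-207254230 and chr1:207250426-207250725. Those of Dlk1 (chr6:134192347-134192646) and Plagl1 (chr1:9297214-9297513) lie on the plus strand.
Igf2, first start: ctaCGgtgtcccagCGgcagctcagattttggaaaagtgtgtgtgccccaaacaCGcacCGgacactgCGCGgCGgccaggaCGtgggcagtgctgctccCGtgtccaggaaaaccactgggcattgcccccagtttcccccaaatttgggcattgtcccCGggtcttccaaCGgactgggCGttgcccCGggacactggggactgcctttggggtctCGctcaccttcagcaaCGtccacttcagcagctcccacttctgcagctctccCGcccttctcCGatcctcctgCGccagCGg
Igf2, second start: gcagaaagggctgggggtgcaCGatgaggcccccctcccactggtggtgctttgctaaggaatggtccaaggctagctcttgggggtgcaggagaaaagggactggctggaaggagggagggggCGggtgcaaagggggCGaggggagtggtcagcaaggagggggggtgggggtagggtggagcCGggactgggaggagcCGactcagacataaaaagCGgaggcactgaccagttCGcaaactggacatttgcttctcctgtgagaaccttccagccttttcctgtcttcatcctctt
Dlk1: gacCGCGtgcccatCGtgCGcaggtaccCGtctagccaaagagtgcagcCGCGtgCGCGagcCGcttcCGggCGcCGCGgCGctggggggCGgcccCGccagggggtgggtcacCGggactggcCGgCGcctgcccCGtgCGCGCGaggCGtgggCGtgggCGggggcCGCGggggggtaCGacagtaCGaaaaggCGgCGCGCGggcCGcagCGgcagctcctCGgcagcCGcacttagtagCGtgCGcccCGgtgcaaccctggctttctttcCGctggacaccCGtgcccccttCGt
Plagl1: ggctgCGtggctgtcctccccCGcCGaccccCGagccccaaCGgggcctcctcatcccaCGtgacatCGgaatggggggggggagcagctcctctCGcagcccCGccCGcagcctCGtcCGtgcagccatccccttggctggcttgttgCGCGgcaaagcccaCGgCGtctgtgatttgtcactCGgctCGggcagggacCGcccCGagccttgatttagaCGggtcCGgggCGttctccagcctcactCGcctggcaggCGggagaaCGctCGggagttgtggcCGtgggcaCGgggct

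These stretches held 19 and 7 CpGs for Igf2, 45 for Dlk1 and 29 for Plagl1, against a median of 7 over 33469 rat promoters of the same length. The other entries held 44 CpGs for Grb10, 21 for Zim1, 18 for Mest, 16 for Peg3 and 13 for Meg3. The letters GGGCGG, searched on both strands as the GC box, occurred 2 times each in the Dlk1 and Plagl1 stretches and 1 time in each Igf2 stretch, and in 33.1% of all promoters. TATAAA occurred in none of the 4, against 14.2% of all promoters, and CCAAT in none, against 37.5%. CANNTG, the E-box letters, occurred 1 time in Plagl1 and 1 time at the second Igf2 start, against 72.1% of all promoters holding it. H19 RNA is also the precursor of a microRNA, miR-675, whose rat arms are given with the seed (bases 2 to 8) in capitals. They lie on the minus strand of chr1:207161766-207161821 (GRCr8).
rno-miR-675-5p: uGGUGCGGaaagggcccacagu
rno-miR-675-3p: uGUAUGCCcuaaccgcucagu

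H19, a long noncoding RNA of fetal and muscle tissue that lies next to Igf2, had the most UMIs of these genes in rat cells, 57463 in chimera rat cells and 79811 in SD rat cells. Its level in myocyte-like cells was 8663 (8575 to 8752) CPM in the chimera and 7077 (7009 to 7146) CPM in the SD rat. At least 1 H19 UMI was found in 100% and 98.9% of those cells. Myocyte-like cells held 64.2% of the H19 UMIs of chimera rat cells while making up 10.2% of them, and 51.6% in the SD rat while making up 17.0%.

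Every other rat cell type compared had a lower H19 level, and in each of them the chimera was below the SD rat. FAP-like cells had 493 (484 to 502) CPM in the chimera and 835 (825 to 845) in the SD rat. EC-like cells had 238 (221 to 255) and 665 (638 to 693) CPM, and MP-like cells 269 (248 to 291) and 573 (538 to 609). The log2 ratios of chimera to SD rat were -1.48 (-1.60 to -1.36) in EC-like, -1.09 (-1.23 to -0.94) in MP-like and -0.76 (-0.79 to -0.73) in FAP-like cells, but 0.29 (0.27 to 0.31) in myocyte-like cells. The direction thus differed between myocyte-like cells and the other 8 types, where the ratio ran from -1.48 in EC-like to -0.50 in Schwann-like cells.

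Between the 2 animals, myocyte transcripts differed in the same direction as H19 in these cells. The summed level of the 9 myocyte markers in EC-like cells was 6028 CPM in the chimera and 16119 CPM in the SD rat, in MP-like cells 6848 and 11348 CPM, and in FAP-like cells 3756 and 6548 CPM, with none of the 9 at 0. Over the 8 types other than myocyte-like cells, that sum ran from 3756 to 6848 CPM in the chimera and from 6548 to 17737 CPM in the SD rat. Across types the order was not shared. FAP-like cells had the lowest of these sums but the highest H19 level of the 8 types, 5.69% and 11.8% of that in myocyte-like cells. As a share of the level in myocyte-like cells, H19 stood at 2.74% and 9.40% in EC-like cells of the chimera and the SD rat, and the marker sum at 1.65% and 4.68%. B-like cells had 199 (175 to 225) and 498 (395 to 620.3) CPM beside marker sums of 6831 and 17737 CPM. With each cell thinned to 1000 UMIs, H19 was found in 20.2% of chimera and 41.4% of SD rat EC-like cells (unthinned 48.3% and 77.3%, median depths 4489.5 and 2941 UMIs). In B-like cells the thinned shares were 15.3% and 38.9% (unthinned 47.7% and 85.2%, median depths 4794 and 3910.5 UMIs). The exact binomial intervals of the thinned shares in the chimera were 17.2% to 23.4% in EC-like and 11.7% to 19.4% in B-like cells. In the SD rat they were 38.3% to 44.5% and 25.9% to 53.1%. Types taken from clusters gave no SD rat B-like cells. The part of free myocyte RNA in the H19 difference was not tested.

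Mouse cells also carried UMIs on the rat H19 row, 1552 over 1847 cells or 0.840 per cell. By type the number per cell was 0.738 in EC-like, 0.923 in MP-like, 1.06 in FAP-like, 0.899 in B-like and 2.17 in myocyte-like mouse cells. Chimera rat EC-like and B-like cells, in comparison, carried 1.07 and 0.689 per cell. With no mouse H19 row analysed, mouse H19 reads that fell on the rat row cannot be told apart from rat RNA.

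**Figure D1:**
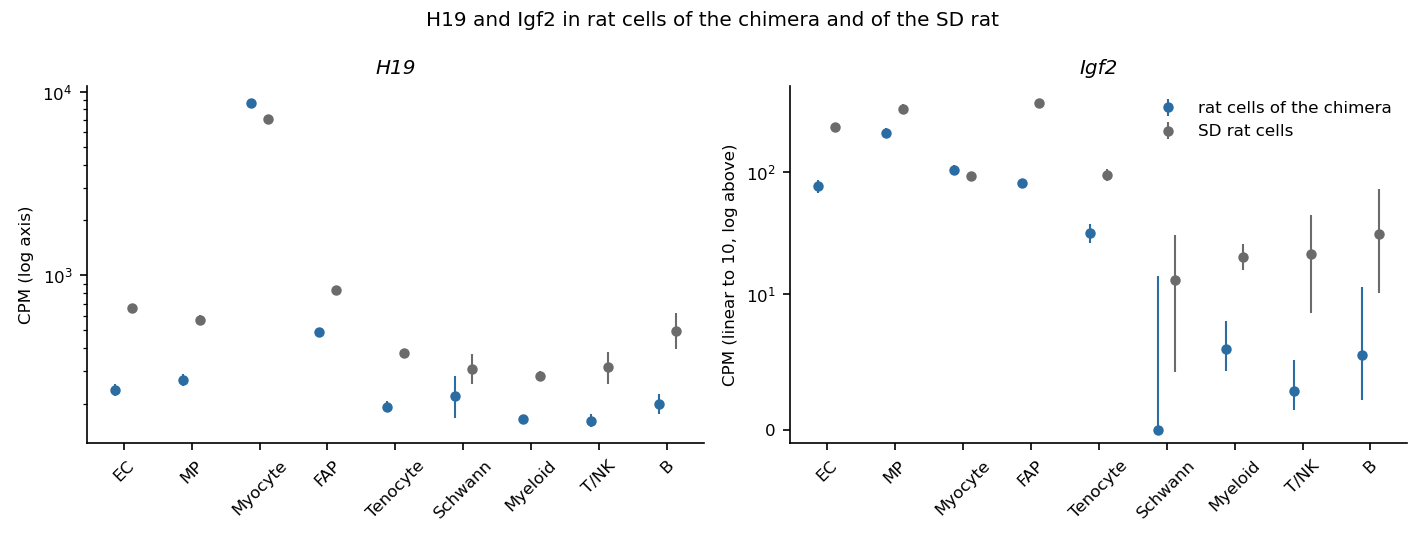
H19 (left, log axis) and Igf2 (right) levels in CPM by cell type in rat cells of the chimera and of the SD rat; points are summed levels and bars exact 95% Poisson intervals. H19 peaks in myocyte-like cells at 8663 and 7077 CPM, and the SD rat points lie above those of the chimera in the other 8 types; Igf2 in FAP-like cells is 81.6 CPM in the chimera and 365 CPM in the SD rat.

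Igf2, the growth factor gene that shares an imprinting control region with H19, was low in mouse cells of every type. EC-like mouse cells had 4.26 (2.75 to 6.28) CPM from 25 UMIs, while rat cells had 76.2 (66.8 to 86.6) in the chimera and 236 (219 to 252) in the SD rat. FAP-like mouse cells had 4.47 (1.64 to 9.73) CPM from 6 UMIs, against 81.6 (78.0 to 85.2) and 365 (359 to 372). The mouse intervals lay below both rat intervals in both types.

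MP-like mouse cells had 14.1 (3.85 to 36.2) CPM, but all 4 UMIs came from 1 cell, and the rat cells had 208 (189.7 to 227) and 331 (304 to 359). No mouse Igf2 UMI was counted in myocyte-like, tenocyte-like, Schwann-like, myeloid-like, T/NK-like or B-like mouse cells. The corresponding upper limit was 50.1 CPM in the 29 myocyte-like and 7.70 CPM in the 41 tenocyte-like cells. Chimera rat levels in these last types were 104 and 31.6 CPM.

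The log2 ratio of mouse to chimera rat cells was -3.88 (-4.40 to -3.37) in EC-like cells, a 14.7-fold lower level, and -3.92 (-4.97 to -2.94) in FAP-like cells, a 15.1-fold lower level. Against the SD rat these were -5.49 (-5.99 to -5.01) and -6.06 (-7.12 to -5.09). In MP-like cells they were -3.79 (-5.44 to -2.48) and -4.45 (-6.10 to -3.15). Taking 3 counts as the limit for a level of 0, Igf2 was at least 5.04-fold lower in tenocyte-like mouse cells than in their chimera rat counterparts and at least 15.1-fold lower than in the SD rat. Thinned to 1000 UMIs, 0.473% of mouse, 4.46% of chimera rat and 12.0% of SD rat EC-like cells had an Igf2 UMI (unthinned 2.12%, 14.2% and 27.3%, median depths 6278.5, 4489.5 and 2941). B-like cells gave 0, 0.817% and 1.85% (unthinned 0, 1.91% and 9.26%, median depths 5841, 4794 and 3910.5).

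Igf2 UMIs were found on the rows of both species in mouse cells and in chimera rat cells. Mouse cells held 35 Igf2 UMIs on the mouse row and 44 on the rat row, so 55.7% (exact interval 44.1 to 66.9) were on the rat row, against a median of 2.29% over paired genes. Chimera rat cells had 3717 on the rat row and 165 on the mouse row, or 4.25%. With both rows summed, the EC ratio of mouse to chimera rat cells was -3.03, and over all alternatives it ran from -4.19 to -2.60. Whether the rat-row UMIs in mouse cells were free rat RNA or misassigned mouse reads was not tested.

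Igf2 also differed between the rat cells of the 2 animals. It was lower in the chimera in FAP-like, EC-like, tenocyte-like and myeloid-like cells, with log2 ratios to the SD rat of -2.15 (-2.22 to -2.08), -1.62 (-1.83 to -1.41), -1.55 (-1.85 to -1.26) and -1.61 (-2.12 to -1.10). In MP-like cells the ratio was -0.67 (-0.84 to -0.49), short of 2-fold, and in myocyte-like cells it was 0.18 (-0.00 to 0.36). The order of types changed with it: in the SD rat Igf2 was highest in FAP-like cells and nearly level with MP-like cells, while in the chimera MP-like cells led with 208 CPM over 104 in myocyte-like and 81.6 in FAP-like cells.

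**Figure D2:**
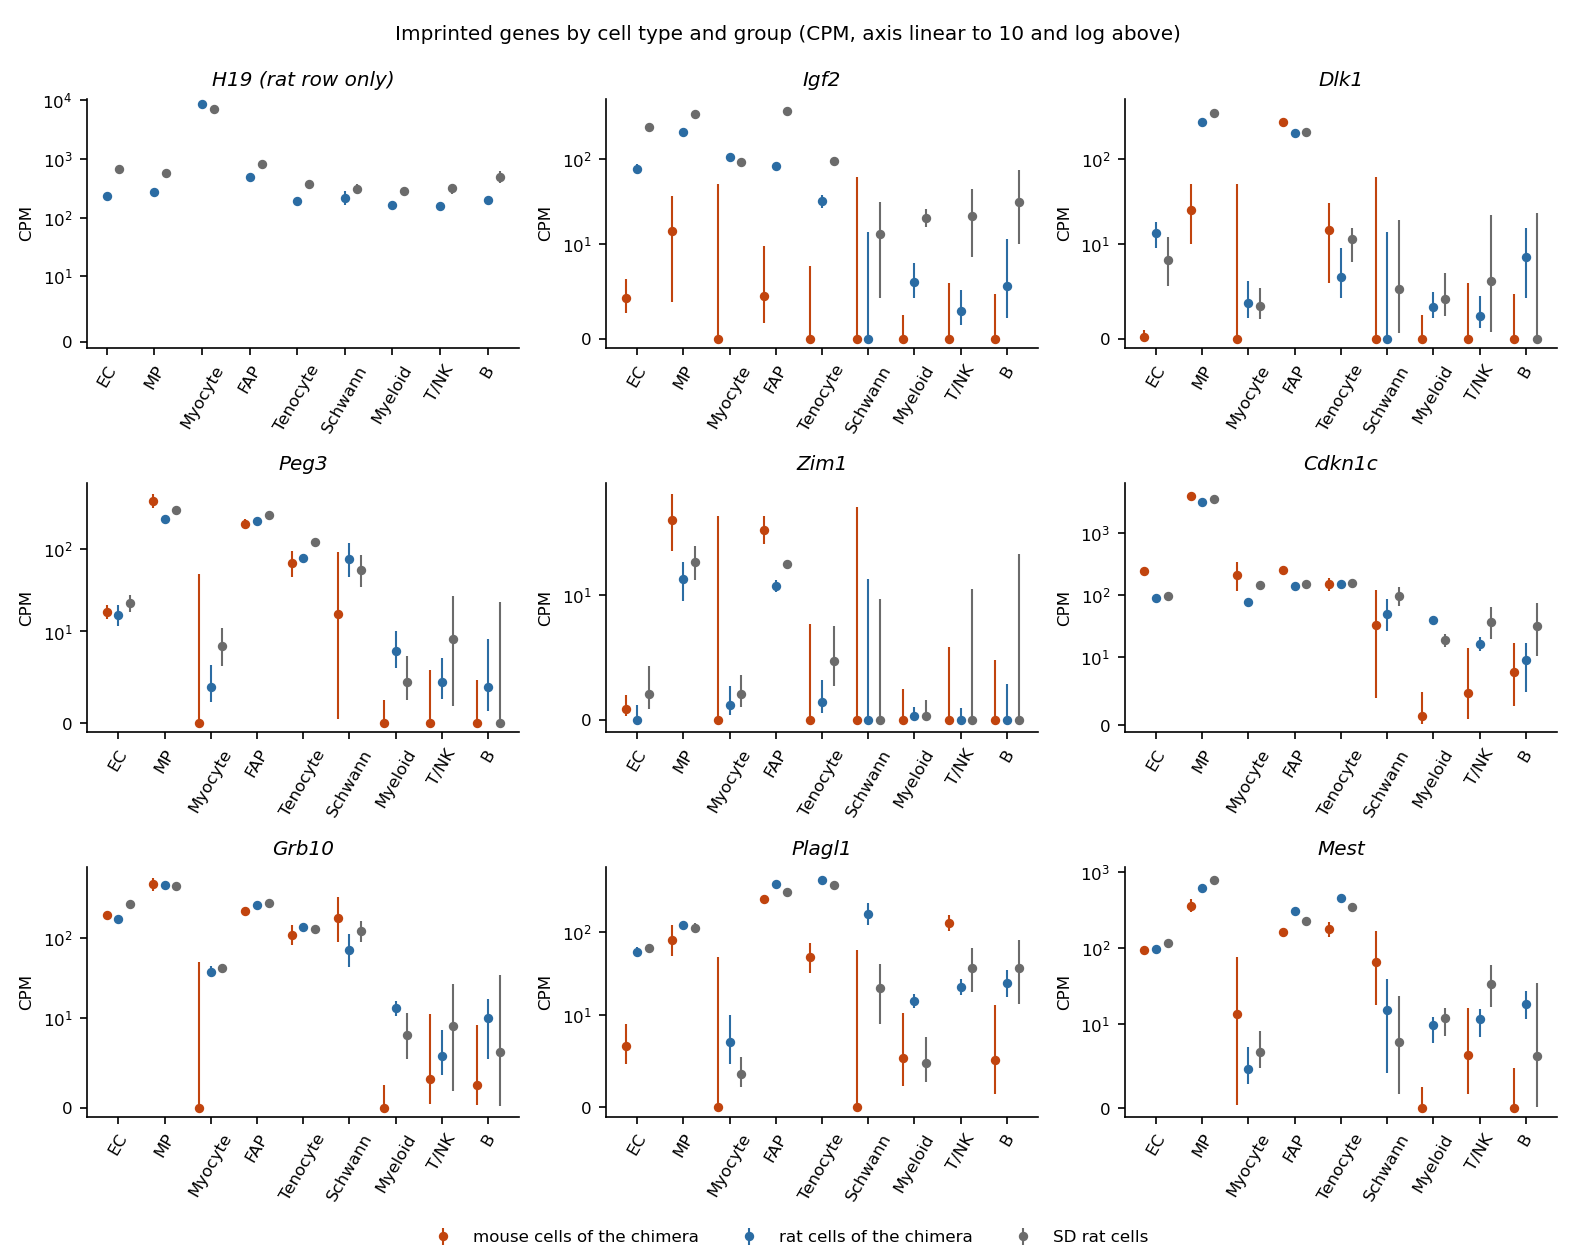
Levels in CPM (axis linear to 10 and logarithmic above) of the 9 measured genes in 9 cell types, for mouse cells (orange), chimera rat cells (blue) and SD rat cells (grey), with exact 95% Poisson bars; H19 is shown for rat cells only. Igf2 in EC-like cells stands at 4.26, 76.2 and 235.5 CPM in the 3 groups, while Grb10 in MP-like cells stands at 466, 460 and 450.2 CPM.

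Dlk1, which encodes a membrane protein of the Notch ligand family that is known in progenitors of fat and muscle, was in mouse cells largely a FAP transcript. FAP-like cells had 266 (239 to 295) CPM in the mouse, 200.3 (195 to 206) in chimera rat and 206 (201 to 211) in SD rat cells, log2 ratios of 0.41 (0.25 to 0.56) and 0.37 (0.21 to 0.52). MP-like cells had 24.7 (9.94 to 51.0) CPM in the mouse, from 7 UMIs in 5 of 39 cells, against 272 (251 to 295) and 343 (316 to 371). Dlk1 was thus a little higher in mouse than in rat FAP-like cells, within 2-fold, and 10.6-fold and 13.4-fold lower in MP-like cells.

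The ratio in MP-like cells was -3.41 (-4.65 to -2.39) against chimera rat and -3.74 (-4.98 to -2.72) against SD rat cells. Set against FAP-like cells of the same group, MP-like cells stood at a log2 ratio of -3.38 (-4.62 to -2.35) in the mouse, 0.44 (0.32 to 0.56) in chimera rat and 0.73 (0.61 to 0.86) in SD rat cells. The order of the pair was thus opposite in mouse and rat cells. FAP-like cells held 95.2% of the 375 mouse Dlk1 UMIs, 82.4% of the chimera rat and 85.6% of the SD rat ones. They made up 6.33%, 32.0% and 36.0% of the cells of these groups, so the UMI shares also depend on cell composition.

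Thinned to 1000 UMIs, Dlk1 was found in 0 of 39 mouse, 14.1% of chimera rat and 13.03% of SD rat MP-like cells (unthinned 12.8%, 45.2% and 46.1%, median depths 10066, 8898 and 7056.5). At the thinned depth a count of 0 in 39 cells allows up to 7.69% of cells with a UMI, while at full depth 5 of the 39 had one. The T/NK-like share was 0 in each group after thinning (unthinned 0, 1.50% and 1.75%, median depths 7393, 7729.5 and 6774). FAP transcripts were also fewer in the mouse MP-like cells: the 10 FAP markers summed to 307, 1182 and 1373 CPM, with 6, 0 and 1 of them at 0, and their part in the Dlk1 difference was not tested.

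EC-like cells had 1 Dlk1 UMI in the mouse and 13.3 and 8.28 CPM in chimera rat and SD rat cells, a ratio of -3.61 (-3.86 to -2.77) to chimera rat cells that was -1.09 with both species' rows summed, as 32 UMIs lay on the rat row. Tenocyte-like cells had 14.6 (5.87 to 30.1), 6.56 (4.32 to 9.54) and 11.3 (8.14 to 15.4) CPM, with 5 of the 7 mouse UMIs in 1 cell. Without that cell the ratio to chimera rat cells went from 1.05 to -0.18. In the remaining types mouse cells had no Dlk1 UMI and the rat groups at most 8.66 CPM, in chimera rat B-like cells.

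**Figure D3:**
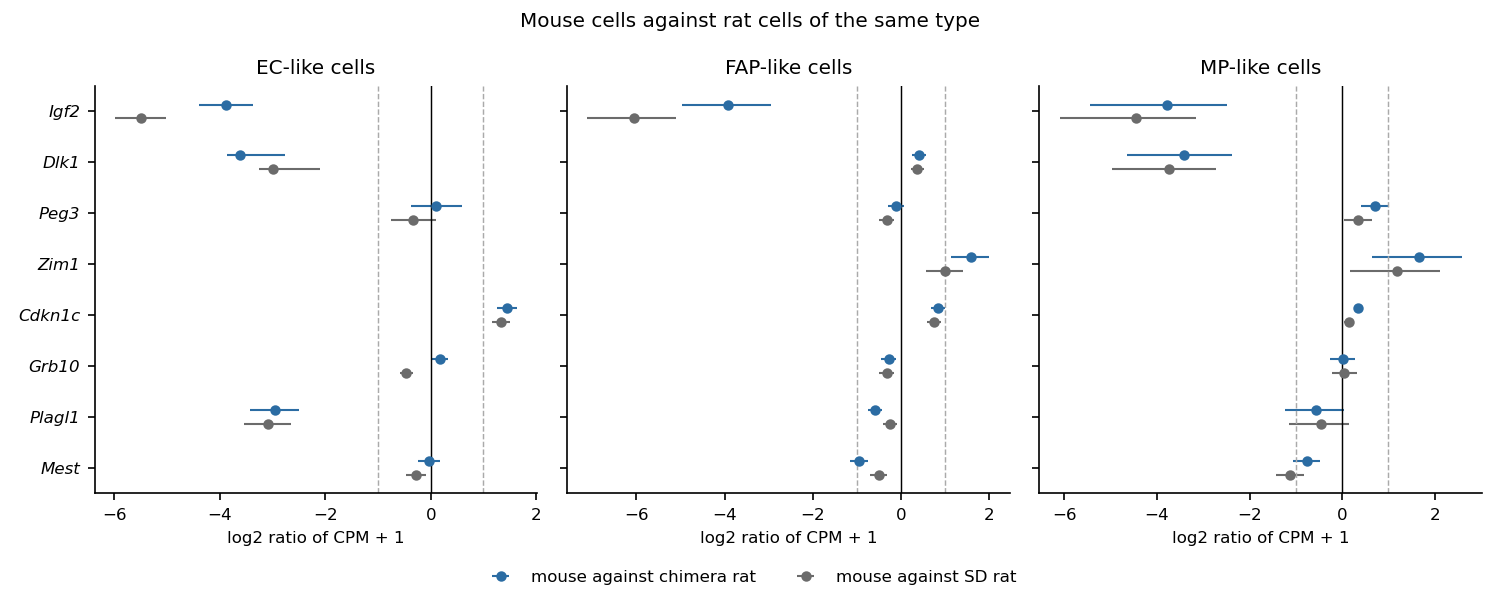
Log2 ratios of CPM + 1 of 8 genes in mouse cells against chimera rat cells (blue) and against SD rat cells (grey) in EC-like, FAP-like and MP-like cells; bars are 95% counting intervals and dashed lines mark 2-fold. Igf2 lies left of the 2-fold line in all 3 types, at -3.88, -3.92 and -3.79 against chimera rat cells, while Grb10 lies between the lines in all 3.

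Peg3 and Zim1 are neighbours on the same chromosome, both encode zinc finger proteins, and they are expressed from opposite parental copies. Peg3 was at similar levels in mouse and rat FAP-like cells, 203 (180.1 to 229), 220.4 (215 to 226) and 255 (249.7 to 261) CPM in mouse, chimera rat and SD rat cells. EC-like cells had 17.2 (14.0 to 20.9), 15.9 (11.8 to 21.0) and 21.9 (17.2 to 27.5) CPM. In MP-like cells the mouse level of 382 (313 to 461) CPM stood above 233 (213 to 253) in the chimera rat and overlapped 301 (276 to 328) in the SD rat.

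No Peg3 ratio of mouse to rat cells in these 3 types reached 2-fold; the largest was 0.71 (0.40 to 1.01) in MP-like cells against the chimera rat. Thinned shares in MP-like cells were 30.8%, 14.1% and 20.4% (unthinned 82.1%, 58.4% and 67.3%, median depths 10066, 8898 and 7056.5), and 0, 0.545% and 0 in B-like cells (unthinned 0, 1.36% and 0, median depths 5841, 4794 and 3910.5). FAP-like cells stood above EC-like cells by a log2 ratio of 3.49 in mouse, 3.71 in chimera rat and 3.48 in SD rat cells, so the spacing of these types was alike in the 3 groups. In myeloid-like cells Peg3 was at 0 in the mouse and at 7.90 and 4.50 CPM in the rat groups, at least 3.904-fold lower than in the chimera rat.

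Zim1 was low in all groups and highest in the 2 types that led for Peg3. FAP-like cells had 38.0 (28.3 to 50.0) CPM in the mouse from 51 UMIs, 12.0 (10.7 to 13.5) in the chimera rat and 18.6 (17.1 to 20.2) in the SD rat. MP-like cells had 45.9 (24.5 to 78.5) CPM from 13 UMIs, 13.9 (9.52 to 19.7) and 19.6 (13.5 to 27.3). Mouse cells were higher than chimera rat cells in both, with log2 ratios of 1.58 (1.14 to 2.00) and 1.65 (0.64 to 2.59); against the SD rat the ratios were 0.99 (0.56 to 1.40) and 1.19 (0.18 to 2.12). Of the Zim1 UMIs of chimera rat cells, 30.1% (26.1 to 34.3) were on the mouse row, against a median of 4.40% over paired genes. With both rows summed the FAP ratio of mouse to chimera rat cells was 1.16, and the part of the row assignment in the difference was not tested. Thinned to 1000 UMIs, Zim1 was found in 0 of 116 mouse, 0.494% of chimera rat and 1.51% of SD rat FAP-like cells. In MP-like cells it was found in 0 of 39, 0.587% and 2.82%. Unthinned shares were 26.5%, 9.45% and 13.6% in FAP-like and 23.1%, 8.50% and 10.9% in MP-like cells. The mouse counts of 0 allow up to 2.59% and 7.69% of cells, so the thinned shares cannot rank the groups. Zim1 had no UMI in T/NK-like or B-like cells of any group.

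Cdkn1c, which encodes the cell cycle inhibitor p57Kip2 that acts as muscle and other cells leave the cycle, had the most UMIs of the 8 genes measured in mouse cells, 3012 in all. Its level in MP-like cells was 3914 (3687 to 4152) CPM in the mouse, 3080.4 (3009 to 3153) in the chimera rat and 3551 (3463 to 3641) in the SD rat. MP-like cells held 36.8%, 52.4% and 44.7% of all Cdkn1c UMIs while making up 2.11%, 4.14% and 3.22% of the cells. A single mouse MP-like cell held 440 of the 1108 UMIs, and without it the ratio to chimera rat cells went from 0.35 (0.25 to 0.44) to -0.24.

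Within MP-like cells Cdkn1c was highest in those with Myog, a transcription factor of myogenic differentiation. Cells not cycling and with a Myog UMI had 8544 CPM in the mouse (12 cells), 7964 in the chimera rat (94) and 12652 in the SD rat (50). Cells not cycling and without a Myog UMI had 93.5 (24 cells), 269 (190) and 191 CPM (185). Cycling cells had 0 (3 cells), 710.4 (57) and 383 CPM (49). The level of Cdkn1c in the Myog-positive cells exceeded that in both other states in each of the 3 groups.

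Outside MP-like cells, Cdkn1c was higher in mouse than in rat EC-like cells. The levels were 243 (230.5 to 256) CPM in the mouse, 88.5 (78.3 to 99.7) in the chimera rat and 96.2 (86.0 to 107) in the SD rat, with log2 ratios of 1.45 (1.26 to 1.64) and 1.33 (1.15 to 1.50). A single chimera rat cell held 113 of the 273 UMIs of its group, and without it the first ratio was 2.19; with types taken from clusters the second was 0.71, under 2-fold. Thinned to 1000 UMIs, 15.6%, 3.86% and 6.19% of EC-like cells had a UMI (unthinned 44.5%, 16.9% and 19.8%, median depths 6278.5, 4489.5 and 2941), against 1.55%, 0.272% and 0 in B-like cells (unthinned 4.65%, 3.27% and 9.26%, median depths 5841, 4794 and 3910.5). In EC-like cells not cycling the levels were 271, 103 and 91.0 CPM. The 10 MP markers summed to 45.3, 92.4 and 167 CPM in mouse, chimera rat and SD rat EC-like cells, with 3, 0 and 0 of them at 0, and their part in the Cdkn1c difference was not tested.

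The FAP ratios of Cdkn1c were smaller, 0.84 (0.67 to 1.00) and 0.74 (0.58 to 0.90), from levels of 251, 140.0 and 149.6 CPM. Tenocyte-like cells had 148, 149.8 and 152 CPM, with overlapping intervals. In myocyte-like cells the mouse was also at least 2-fold above the chimera rat, but not the SD rat. That rested on 15 mouse UMIs in 29 cells. Myeloid-like cells went the other way: 2 UMIs in the mouse, or 1.35 (0.163 to 4.87) CPM, against 39.5 (35.1 to 44.4) in the chimera rat and 18.3 (14.1 to 23.3) in the SD rat. Of the 285 chimera rat UMIs in myeloid-like cells 132 were in 1 cell, and without it the ratio of chimera to SD rat cells went from 1.07 to 0.31.

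**Figure D4:**
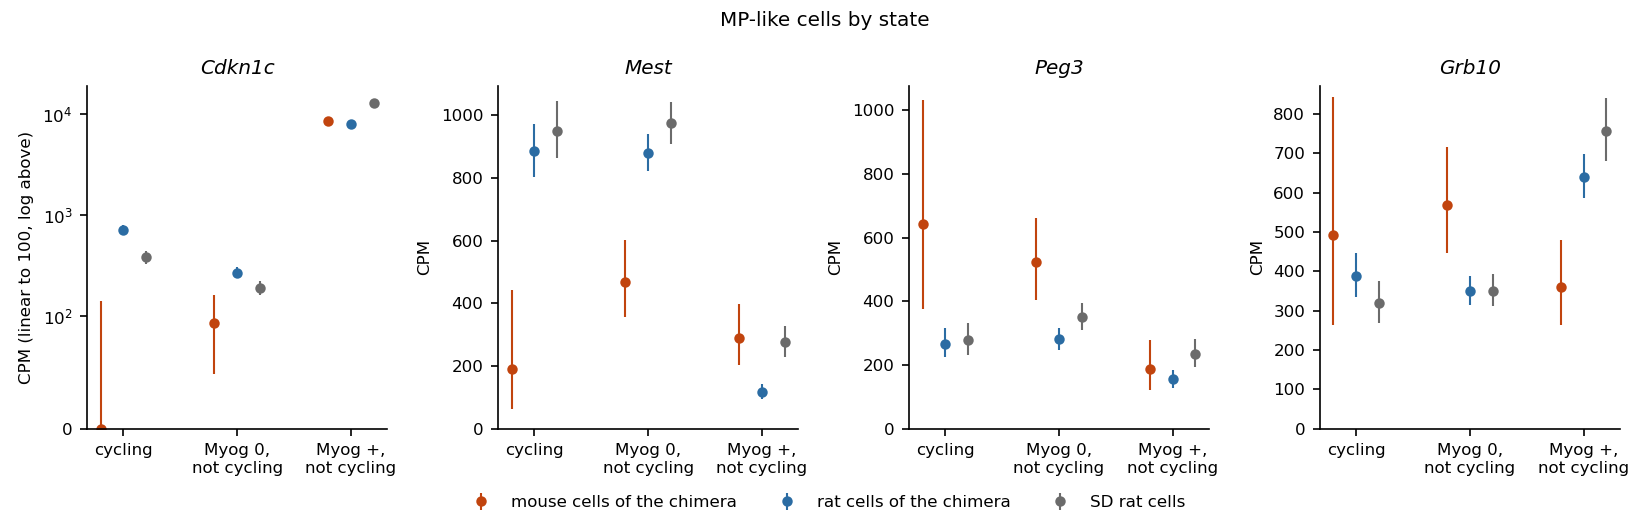
Levels of Cdkn1c, Mest, Peg3 and Grb10 in CPM in MP-like cells split into cycling cells, non-cycling cells without a Myog UMI and non-cycling cells with one, for the 3 groups; bars are exact 95% Poisson intervals. Cdkn1c reaches 8544, 7964 and 12652 CPM in Myog-positive cells, whereas Mest is at 117 and 275 CPM there in chimera rat and SD rat cells.

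Grb10 was at similar levels in mouse and rat cells of the 3 types that held most mouse UMIs of this gene. MP-like cells had 466 (390.2 to 553), 459.8 (433 to 488) and 450.2 (419 to 483) CPM in mouse, chimera rat and SD rat cells, with overlapping intervals and a ratio of 0.02 (-0.25 to 0.28) to the chimera rat. EC-like cells had 193 (182 to 205), 171 (157 to 186) and 267 (249 to 285) CPM, and FAP-like cells 215 (191 to 241), 261 (254 to 267) and 269.8 (264 to 276). All 6 ratios to rat cells in these 3 types stayed within 2-fold, from -0.46 (-0.59 to -0.33) to 0.17 (0.03 to 0.33).

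MP-like cells had the highest Grb10 level in every group. Their state moved it less than it moved Cdkn1c, and not in the same way in the groups: 569 CPM without and 359 with Myog in the mouse, 349 and 639.7 in the chimera rat, and 350.1 and 758 in the SD rat. With 12 mouse Myog-positive cells this difference between groups was not tested. In myeloid-like cells no mouse UMI was counted against 13.3 and 8.15 CPM, at least 6.57-fold lower than in the chimera rat. Schwann-like cells were higher in the mouse, 180.1 (89.9 to 322) CPM against 71.9 (43.3 to 112) in the chimera rat, from 11 and 19 UMIs. The SD rat level was 123 (90.7 to 164) CPM, and the log2 ratio of mouse to SD rat cells, 0.54 (-0.55 to 1.50), was short of 2-fold.

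Plagl1, a zinc finger transcription factor that restrains proliferation, differed between mouse and rat cells by cell type. EC-like cells had 6.64 (4.72 to 9.08) CPM in the mouse against 58.0 (49.8 to 67.2) and 63.9 (55.7 to 73.0) in chimera rat and SD rat cells, 7.73-fold and 8.50-fold lower. Tenocyte-like cells had 50.1 (32.1 to 74.5) CPM in the mouse against 425 (405 to 445) and 368 (349 to 389), 8.33-fold and 7.23-fold lower. In both types the mouse interval lay far below those of the rat cells.

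The Plagl1 log2 ratios of mouse to chimera rat cells were -2.95 (-3.42 to -2.49) in EC-like and -3.06 (-3.69 to -2.49) in tenocyte-like cells. They were -2.44 in EC-like cells with both rows summed, and -1.80 in tenocyte-like cells with species called at 90% and 10%. FAP-like cells were closer, 254 (228 to 283), 384 (376 to 392) and 302 (296 to 309) CPM, and MP-like cells 81.3, 121 and 113 CPM, both within 2-fold. Tenocyte-like cells therefore stood below FAP-like cells in the mouse, with a log2 ratio of -2.32 (-2.97 to -1.73), and slightly above them in chimera rat and SD rat cells, at 0.14 (0.07 to 0.22) and 0.28 (0.20 to 0.37).

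T/NK-like cells were the exception, with more Plagl1 in mouse than in rat cells. The mouse level was 129.8 (103 to 161) CPM from 82 UMIs in 21 of 87 cells, against 21.8 (17.4 to 27.0) and 36.7 (18.97 to 64.1) in chimera rat and SD rat cells. The ratios were 2.52 (2.07 to 2.96) and 1.79 (0.93 to 2.77), the latter resting on 12 UMIs in 57 SD rat cells. With types taken from clusters there were no SD rat T/NK-like cells, so that ratio then has no value. Thinned shares were 6.90%, 0.831% and 0 (unthinned 24.1%, 5.15% and 7.02%, median depths 7393, 7729.5 and 6774), against 0, 0.545% and 0 in B-like cells (unthinned 3.101%, 4.63% and 9.26%, median depths 5841, 4794 and 3910.5). Cycling cells made up 17.2% of the mouse, 6.48% of the chimera rat and 3.51% of the SD rat T/NK-like cells, and their part in this difference was not tested.

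Mest, a hydrolase-like gene of mesodermal tissue, was lower in mouse than in rat tenocyte-like cells and level with them in EC-like cells. EC-like cells had 94.1 (86.4 to 102), 96.0 (85.3 to 108) and 115 (104 to 127) CPM in mouse, chimera rat and SD rat cells. Tenocyte-like cells had 175 (139.8 to 217), 449.8 (429.5 to 471) and 343 (324 to 362) CPM. FAP-like cells had 161 (140.2 to 184), 311 (304 to 318) and 229.5 (224 to 235) CPM. The ratio to chimera rat cells was -0.03 (-0.23 to 0.18) in EC-like, -0.95 (-1.15 to -0.75) in FAP-like and -1.35 (-1.69 to -1.04) in tenocyte-like cells, the last past 2-fold; to SD rat cells the last was -0.96 (-1.30 to -0.65).

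MP-like cells had the highest Mest level in each group, 360.3 (294 to 437) CPM in the mouse, 611 (579.7 to 644) in the chimera rat and 782 (741 to 825) in the SD rat. The ratio was -0.76 (-1.06 to -0.47) to chimera rat and -1.12 (-1.42 to -0.83) to SD rat cells, the latter under 2-fold without cycling cells. By state, Mest stood at 879 CPM without and 117 with Myog in the chimera rat and 974 and 275 in the SD rat, the opposite order to Cdkn1c. Mouse MP-like cells had 467 and 288 CPM in these states. Peg3 had the same order as Mest, 522 and 187 CPM in the mouse, 280.0 and 154 in the chimera rat and 350.1 and 234 in the SD rat.

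Counted over all types, 51 pairs of a member and a type had at least 20 UMIs in mouse and chimera rat cells together. Of these, 8 were at least 2-fold higher and 21 at least 2-fold lower in mouse cells, where 18.5% and 15.8% of all gene and type pairs were. Some pairs rested on few UMIs. The higher ones included Mest in myocyte-like cells, with 1 mouse UMI against 20 in the chimera rat. They also included Dlk1 in tenocyte-like cells, with 7 mouse UMIs. Among pairs with at least 100 UMIs together, 4 were higher and 11 lower. The median log2 ratio of the members was -0.59 and that of all pairs 0.03. Of the 21 lower pairs, 6 were in myeloid-like cells, where 6 of the 7 measured members were lower, beside 22.7% of all genes (16.1% were higher). In those cells transcripts of other types were also fewer in the mouse. FAP markers summed to 13.5, 280 and 253 CPM in mouse, chimera rat and SD rat myeloid-like cells, and myocyte markers to 665, 4820 and 9060 CPM. The part of free RNA in the lower pairs was not tested. Against the SD rat, 3 of 46 pairs were higher and 16 lower, where 18.9% and 16.0% of all pairs were.

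By type, 1 of 7 members was higher (Cdkn1c) and 3 lower (Igf2, Dlk1, Plagl1) in EC-like cells, where 19.5% of all genes were higher and 16.2% lower. In FAP-like cells 1 of 8 was higher (Zim1) and 1 lower (Igf2), where 21.0% and 11.3% were. In MP-like cells 1 of 8 was higher (Zim1) and 2 lower (Igf2, Dlk1), where 16.9% and 17.9% were. In FAP-like and MP-like cells the members thus passed 2-fold about as often as all genes did.

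Comparing the rat cells of the 2 animals, 4 of 65 pairs were at least 2-fold higher and 10 lower in the chimera, where 3.27% and 4.76% of all rat pairs were. H19 and Igf2 made up 7 of the 10 lower pairs. The median log2 ratio of the members was -0.36 and that of all pairs -0.01.

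**Figure D5:**
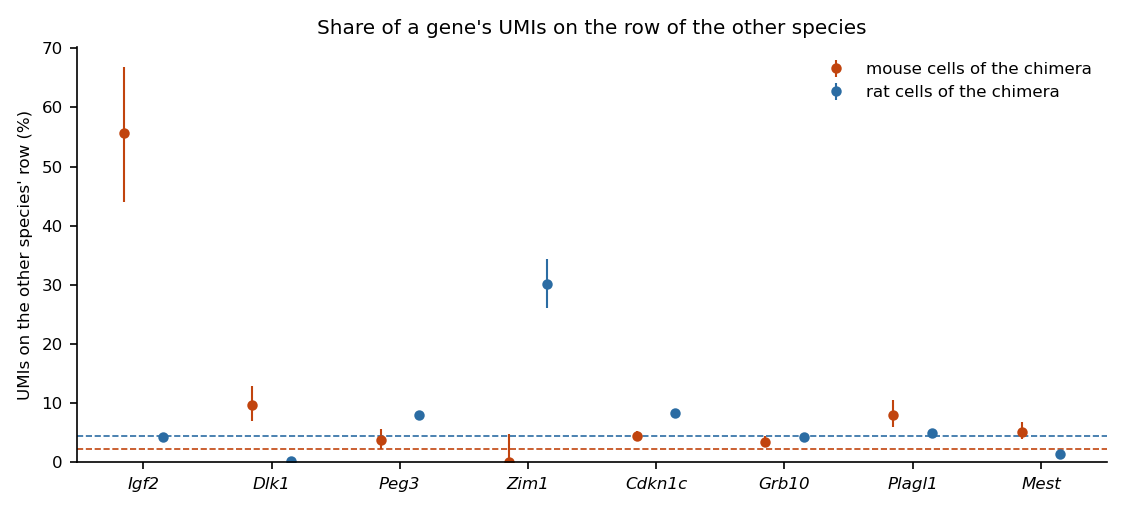
Share (%) of a gene's UMIs that lay on the row of the other species, in mouse cells and in chimera rat cells, with exact 95% binomial bars; dashed lines are the medians over paired genes, 2.29% and 4.40%. Igf2 in mouse cells (55.7%) and Zim1 in chimera rat cells (30.1%) lie far above the lines, and Dlk1 in chimera rat cells (0.201%) far below.

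The share of UMIs on the other species' row bears on every ratio to the chimera rat. In mouse cells it was 9.64% for Dlk1, 8.01% for Plagl1, 5.22% for Mest, 4.47% for Cdkn1c, 3.76% for Peg3, 3.52% for Grb10 and 0 of 74 UMIs for Zim1. In chimera rat cells it was 8.27% for Cdkn1c, 8.04% for Peg3, 4.90% for Plagl1, 4.26% for Grb10, 1.34% for Mest and 0.201% for Dlk1. Igf2 and Zim1 apart, each of these was under 10%. Among paired genes in mouse cells, Dlk1 and Plagl1 nonetheless stood at percentiles 95.4 and 93.7. Mest, Cdkn1c, Peg3 and Grb10 stood at 70.2 to 85.3. With both rows summed, a ratio of mouse to rat cells past 2-fold came under it for Plagl1 in myeloid-like cells against the chimera rat (-0.89), and for Dlk1 in EC-like (-0.54) and Peg3 in Schwann-like cells (-0.80) against the SD rat.

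Other imprinted genes gave no common direction. Of 64 listed from knowledge of the mouse, 49 had 1 row in each species. In FAP-like cells 39 were measured in mouse and chimera rat cells, 9 of them higher and 4 lower, beside 21.0% and 11.3% of all genes, with a median log2 ratio of 0.21 against 0.15 over all genes. In EC-like cells 29 were measured, 8 higher and 7 lower, beside 19.5% and 16.2% of all genes (median -0.22 against 0.10). In MP-like cells 26 were measured, 6 higher and 3 lower, beside 16.9% and 17.9% (0.10 against -0.00). Peg10, a retrotransposon-derived gene, was at 151 CPM in mouse and 7.21 CPM in chimera rat FAP-like cells, a log2 ratio of 4.21, with 39.8% of the chimera rat UMIs on the mouse row and a ratio of 3.47 to SD rat cells. Ndn, a MAGE family gene of the Prader-Willi region, was at 256 and 126 CPM in FAP-like cells (1.02). Asb4 was at 24.0 CPM in mouse EC-like cells and had 1 UMI in chimera rat ones, Zdbf2 was at 180.2 and 30.5 CPM in MP-like cells (2.53), and Atp10a at 134 and 32.7 CPM in FAP-like cells (2.00). Ppp1r9a, which encodes a regulatory subunit of protein phosphatase 1, went in opposite directions by type, at 57.4 and 6.81 CPM in FAP-like (2.90) and at 1.53 and 16.2 CPM in EC-like cells (-2.76). Lower in mouse cells were Tssc4, with 16.4 against 504 CPM in FAP-like cells (-4.86), and Slc22a18, with 4.47 against 59.9 CPM (-3.48). Klf14 had 1 UMI in mouse and 5.91 CPM in chimera rat FAP-like cells (-1.99). Dcn, a matrix gene that FAPs express, had 4.94 against 177 CPM in EC-like cells (-4.91), where the 10 FAP markers summed to 301 CPM in mouse and 642 CPM in chimera rat cells. Cd81 could not be compared, since 97.2% to 100% of its UMIs in chimera rat cells were on the mouse row and the SD rat FAP-like cells had 3 on the rat row. Rat Tssc4 stood at 504 CPM in chimera rat and 549 CPM in SD rat FAP-like cells, where rat Cd81 had 4 and 3 UMIs. In mouse FAP-like cells Tssc4 stood at 16.4 and Cd81 at 1080 CPM. The part of the row assignment in the Tssc4 difference was not tested.

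The genes whose levels ran most like a member across types and groups are given as a description, with Pearson's r of log2(CPM + 10) over 27 points (9 types in 3 groups, 18 for H19), among 12229 genes. These points share libraries and depth. H19 ran most like Ampd1 (r = 0.95), Acyp2 and Hspb7 (both 0.94), Peg3 like Npas2 (0.96), Zim1 like Hmcn2 (0.95), Grb10 like Rbfox2 (0.97), and Mest like Mxra7 (0.89). The highest r was lower for Igf2 (Shbg, 0.86), Plagl1 (Chpf, 0.87) and Cdkn1c (Hs6st2, 0.85).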

How the data were processed

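Per the labels, 3' v3.1 libraries were counted with Cell Ranger 7.1.0, with mRatBN7.2 and GRCm39 named as builds. The authors deposited raw UMI counts, not normalized. Barcodes with at least 500 UMIs, 200 genes and at most 20% mitochondrial UMIs were kept, and doublets were removed with scrublet in scanpy 1.11.5 (expected rate 8%). Cells were typed on their own species' rows from 13 marker lists, requiring 3 markers and a score 1.25 times that of the next list. Myocyte-like cells had at least 15% of UMIs in myocyte markers, and other types under 5%. The members and lists were chosen with earlier results of these data known, and the scoring rule was set after the data were seen. UMIs were summed per group and type, with types of at least 20 cells and genes of at least 20 UMIs in the compared groups together. All members were named. Of 64 other imprinted genes, those with 50 UMIs and a 2-fold ratio in EC-like, MP-like or FAP-like cells could be named, by size of ratio, and Ndn was named after its value was seen. Genes alike in pattern were ranked by Pearson's r. The code was tested on simulated data. Exact intervals used scipy 1.17.1.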

Additional observations from a re-analysis of the deposited data

How the results depend on the processing

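Each ratio was recomputed under 10 alternatives. Of the 62 ratios past 2-fold, those still past it numbered 62 of 62 with at least 1000 UMIs per barcode, 61 of 62 with levels scaled to all UMIs of the cell, 59 of 62 with predicted doublets kept, 59 of 62 without cycling cells, 57 of 62 with both rows summed, 55 of 57 with types from clusters, 50 of 53 without the cell with the most UMIs, 43 of 45 with species called at 90% and 10%, 34 of 34 with at least 100 UMIs together and 44 of 62 with a pseudocount of 10 CPM, which shrinks ratios of low levels by construction.

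For mouse against chimera rat cells the 8 higher pairs became 4 at 90% and 10%, 5 without the top cell and 4 with at least 100 UMIs, and the 21 lower became 11 with at least 100 UMIs. For mouse against SD rat cells the 3 higher became 1 with clusters and 1 with at least 100 UMIs, and the 16 lower became 9 with at least 100 UMIs. For chimera rat against SD rat cells the 4 higher became 2 at 90% and 10%, 1 without the top cell, 1 with a pseudocount of 10 and 2 with at least 100 UMIs. The ratio of Mest in myocyte-like mouse to chimera rat cells turned to -0.10 with doublets kept, and that of Dlk1 in tenocyte-like cells to -1.70 with clusters and -0.18 without the top cell. The higher minimum leaves fewer pairs, and types with under 20 cells give no value. The latter held for mouse myocyte-like and Schwann-like cells at 90% and 10%, and for SD rat T/NK-like cells with clusters. Other causes were not tested.

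At 90% and 10%, 50 chimera rat EC-like cells and 5 mouse myocyte-like cells remained, and types with under 20 cells gave no value. Clusters gave no SD rat T/NK-like or B-like cells. No paired analysis was possible because each group was 1 sample. With 1 library per group no value can be set against the spread between animals. Mouse MP-like, tenocyte-like, myocyte-like and Schwann-like cells numbered 39, 41, 29 and 22, so low levels there rest on few UMIs.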
